A study of Rattus norvegicus with 12 samples.

Results

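The genes described here are 30 enzymes, carriers and regulators of fatty acid oxidation, most of them known targets of the nuclear receptor PPAR-alpha, in rat liver. They are the genes of a list of 32 symbols that the deposited count tables hold under the same name, out of 16558 genes in the joined tables. Acaa1a and Cyp4a3 found no row of that name and were not analysed here. Sprague Dawley rats were divided at random into 4 groups, and total RNA of the liver was sequenced in 3 libraries per group. In 2 groups rats on a high-fat diet, given to bring on fatty liver, were treated with didymin, a flavonoid glycoside of citrus fruit, at a low or a high dose that the sources used here do not quantify. The model group had the high-fat diet, for 8 weeks per the design text, and no didymin is named for it. The normal group had normal saline, and no high-fat diet is named for it. Its samples are titled wt, and the titles of the other groups name no genotype. The columns name the didymin groups by the letters G and D, and no label pairs a letter with a dose, so they are called arm G and arm D. The sources used here do not give sex, age or the length of didymin treatment, and since the labels do not tie libraries to animals, p-values here cover only the scatter among libraries.

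Fatty acids are burned in mitochondria after the carnitine shuttle has carried them across the inner membrane, and each turn of beta-oxidation shortens the chain and passes electrons to the respiratory chain. Peroxisomes shorten very long chains first, and microsomal omega-hydroxylases of the Cyp4a family oxidise the other end of the chain. In fasting or under a fatty acid load, PPAR-alpha, bound to DNA with its partner RXR, is known to raise many of these genes in rodent liver, along with ketogenesis and the secreted factors Fgf21 and Angptl4. The 30 genes were sorted by role into 3 of the carnitine shuttle, 10 of mitochondrial beta-oxidation, 3 of electron transfer from it, 3 peroxisomal, 3 omega-hydroxylases, 2 acyl-CoA thioesterases, 4 of signalling and regulation, and 2 others, Fabp1 and Vnn1. None of the 30 is an enzyme of ketogenesis, so that pathway is given from a separate list of 5 genes.

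PPAR-alpha and RXR are known to bind a direct repeat of the half-site AGGTCA with 1 base between both copies. The promoters of 25 of the 30 genes were found by symbol in the RefSeq table of assembly GRCr8, each from 250 bases before to 50 bases after the gene's start. The direct repeat was searched as AGGNCANAGGNCA on both strands and was found in 1 of the 25, Fabp1, and in 0.415% of all 33469 promoters in the table. The single half-site AGGTCA was in 6 of the 25, against 16.2% of all promoters, and this search includes half-sites inside a direct repeat. The half-site GGGTCA was in 5 of the 25, against 13.8% of all promoters. A match is a description of letters and not a binding site. These 4 promoters are shown, in the direction of the gene with matches in capitals, because Fabp1 holds the direct repeat, Creb3l3 holds AGGTCA and has the smallest p in the model against normal, Pex11a holds GGGTCA on the minus strand and has the smallest p in arm D against the model, and Acot2 has the smallest p in arm G against the model.
Fabp1, GRCr8 chr4:104749090-104749389, plus strand: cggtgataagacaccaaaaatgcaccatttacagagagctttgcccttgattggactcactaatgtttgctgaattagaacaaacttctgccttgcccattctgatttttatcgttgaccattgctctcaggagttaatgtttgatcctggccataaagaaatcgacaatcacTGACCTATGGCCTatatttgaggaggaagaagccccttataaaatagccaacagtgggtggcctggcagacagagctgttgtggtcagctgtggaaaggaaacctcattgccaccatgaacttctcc
Creb3l3, GRCr8 chr7:9273070-9273369, plus strand: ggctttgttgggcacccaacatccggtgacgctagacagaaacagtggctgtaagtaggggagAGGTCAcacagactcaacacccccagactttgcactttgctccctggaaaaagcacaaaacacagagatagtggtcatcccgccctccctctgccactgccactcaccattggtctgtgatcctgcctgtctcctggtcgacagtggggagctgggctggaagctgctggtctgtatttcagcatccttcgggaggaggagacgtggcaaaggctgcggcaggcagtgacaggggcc
Pex11a, GRCr8 chr1:143096442-143096741, minus strand: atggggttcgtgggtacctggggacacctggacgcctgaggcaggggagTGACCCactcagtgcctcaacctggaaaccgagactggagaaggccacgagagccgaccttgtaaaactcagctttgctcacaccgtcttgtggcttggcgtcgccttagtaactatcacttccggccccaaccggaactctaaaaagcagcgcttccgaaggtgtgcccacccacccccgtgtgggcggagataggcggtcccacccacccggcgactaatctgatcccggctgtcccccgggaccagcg
Acot2, GRCr8 chr6:109342590-109342889, plus strand: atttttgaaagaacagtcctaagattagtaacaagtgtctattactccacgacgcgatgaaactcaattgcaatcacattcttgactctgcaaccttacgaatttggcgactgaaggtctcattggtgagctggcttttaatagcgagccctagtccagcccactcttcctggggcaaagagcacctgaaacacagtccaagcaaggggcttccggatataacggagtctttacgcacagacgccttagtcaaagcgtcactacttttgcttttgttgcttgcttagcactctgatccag
In Fabp1 the capitals mark the direct repeat on the minus strand, from base -77 to base -65 of the start. In Creb3l3 the half-site lay from -187 to -182 and in Pex11a from -201 to -196. Acot2 held none of the searched motifs in this window.

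The libraries held between 12469914 and 15521648 counts. The 13 genes of the mitochondrial genome took 61.0% of the counts in arm G library G.3 and 44.1% in model library M.6, against 3.85% to 18.8% in the other 10. The summed level of 8 hepatocyte markers, which include Alb, Ttr and Apoa1, was 47303 CPM (counts scaled to library size) in G.3 and 78459 CPM in M.6. It was 152009 to 171491 CPM in the other high-fat libraries and 163996 to 204071 CPM in normal livers. The 5 tested lymphocyte markers summed to 28.8 CPM in G.3 and to at most 10.5 CPM in the other libraries. Of the adipocyte markers, Adipoq and Lep have no row, Plin1 had 1 count in all libraries together, and the summed level was 5.40 to 18.3 CPM. The 8 Kupffer cell markers summed to 307 to 679 CPM in arm G, 434 to 1359 CPM in arm D, 200.1 to 475 CPM in the model and 448 to 644 CPM in normal livers. The 5 tested endothelial markers summed to 133 to 213 CPM in arm G, 215 to 252 CPM in arm D, 125 to 181 CPM in the model and 171 to 226 CPM in normal livers. The part of RNA quality or cell makeup in the results was not tested.

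No gene of the 30 passed an adjusted p of 0.05 in any comparison, by edgeR's quasi-likelihood test with Benjamini-Hochberg adjustment over 12355 tested genes. All 30 passed the filter on low counts. The genes lay lower in high-fat than in normal livers more often than the reverse. In the mean of arm G, arm D and the model against normal, 24 of the 30 had log2 fold changes below 0, and their median was -0.35, against 47.9% of all tested genes and a median of 0.02. That comparison had 0 of 30 called, where the background was 0.089% of all genes, and 5 of 30 at an unadjusted p under 0.05, all lower in the high-fat livers, where the background was 6.52%. Without M.6 and G.3 there were 24 of 30 below 0 and 8 of 30 at an unadjusted p under 0.05. All 12499 genes of that fit had 49.9% below 0 and 879 at that threshold. The count of the 30 at that threshold was 8 without M.6 alone, against 701 of all 12595 genes. It was 1 without N.2. In the fit without N.2, 345 of all genes passed, against 806 of 12355 in the main fit. The summed hepatocyte markers were also lower in the high-fat libraries, with normal library N.2, at 163996 CPM, within their range, and their part in this shift was not tested. In bulk liver, fewer hepatocytes and less RNA per hepatocyte cannot be told apart.

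**Figure D1:**
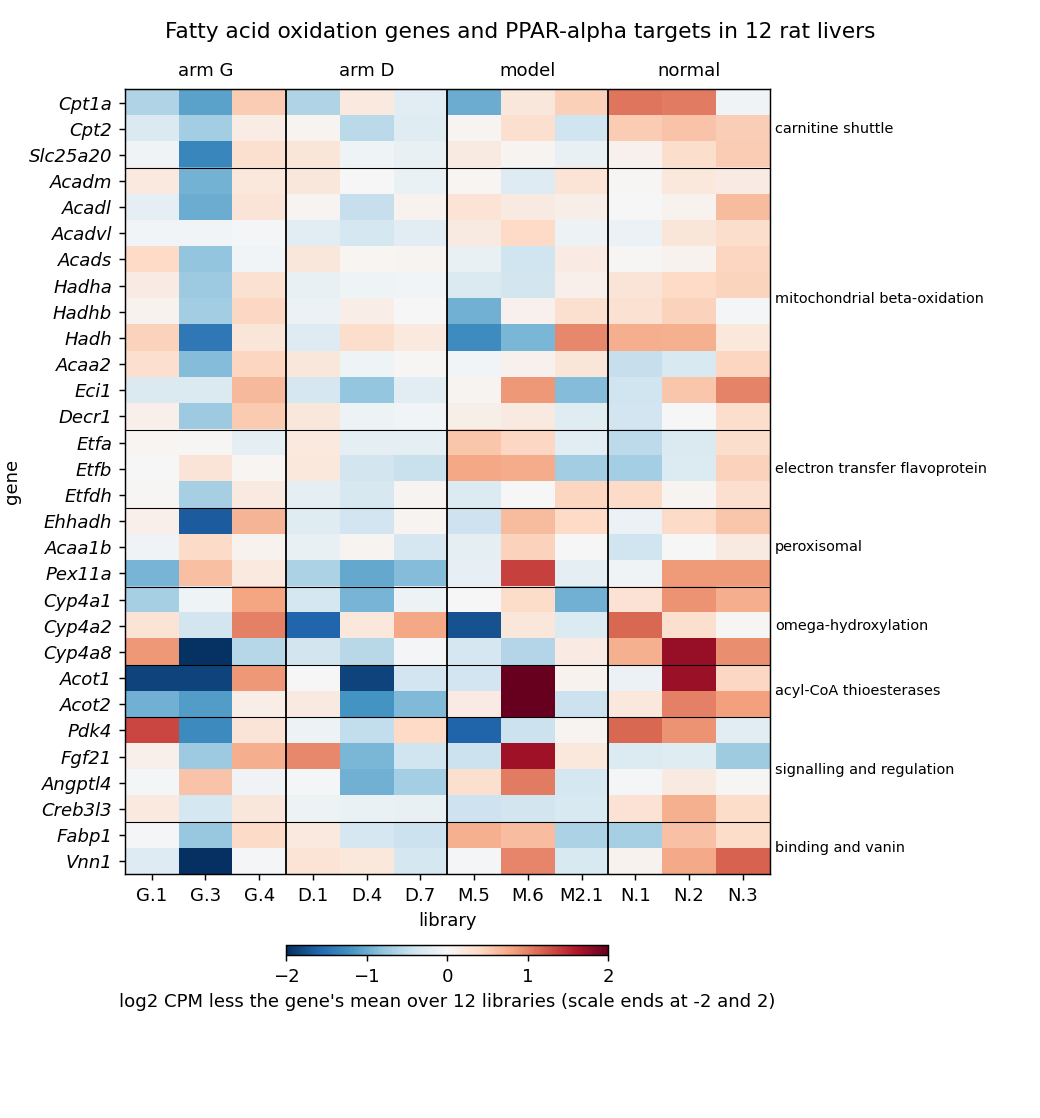
Level of the 30 genes in each library (columns, by group) as log2 CPM less the gene's mean over the 12 libraries, in rows grouped by role. Library G.3 is the lowest library for 15 genes, M.6 is the highest for 7, and the normal libraries are mostly above the mean in the carnitine shuttle and omega-hydroxylation rows.

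The carnitine shuttle carries long-chain fatty acids into the mitochondrial matrix. Cpt1a, the rate-controlling enzyme on the outer membrane, had 243, 176 and 524 CPM in arm G, 244, 423 and 320.2 CPM in arm D, 187, 434 and 517 CPM in the model and 779, 761 and 353 CPM in normal livers, the libraries being given here and below in the order G.1, G.3, G.4, D.1, D.4, D.7, M.5, M.6, M2.1, N.1, N.2 and N.3. Normal libraries N.1 and N.2 were above every high-fat library, and N.3 lay among them. Cpt2, which returns the acyl group to CoA inside the matrix, had 104, 78.7 and 142 CPM in arm G, 132, 88.1 and 108 CPM in arm D, 133, 159.6 and 97.5 CPM in the model and 182, 191 and 179.9 CPM in normal livers. All 9 high-fat libraries were below the lowest normal library. The share of all tested genes separated in this way is not given here. In the high-fat livers against normal the log2 fold change was -0.67 ± 0.22 (± SE, as for all fold changes here) for Cpt2 (adjusted p = 0.633, edgeR's quasi-likelihood test) and -0.89 ± 0.38 for Cpt1a (adjusted p = 0.749). Cpt2 averaged 109 ± 31.99 CPM in arm G, 109 ± 22.1 CPM in arm D, 130.1 ± 31.2 CPM in the model and 184 ± 5.65 CPM in normal livers (SD, n = 3 each). Slc25a20, the carrier of the inner membrane, had a log2 fold change of -0.38 ± 0.28 and group ranges that overlapped. Without M.6 and G.3 the values were -0.66 for Cpt2 and -0.82 for Cpt1a, and with the mitochondrial share of counts as a covariate Cpt1a was at -0.56.

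**Figure D2:**
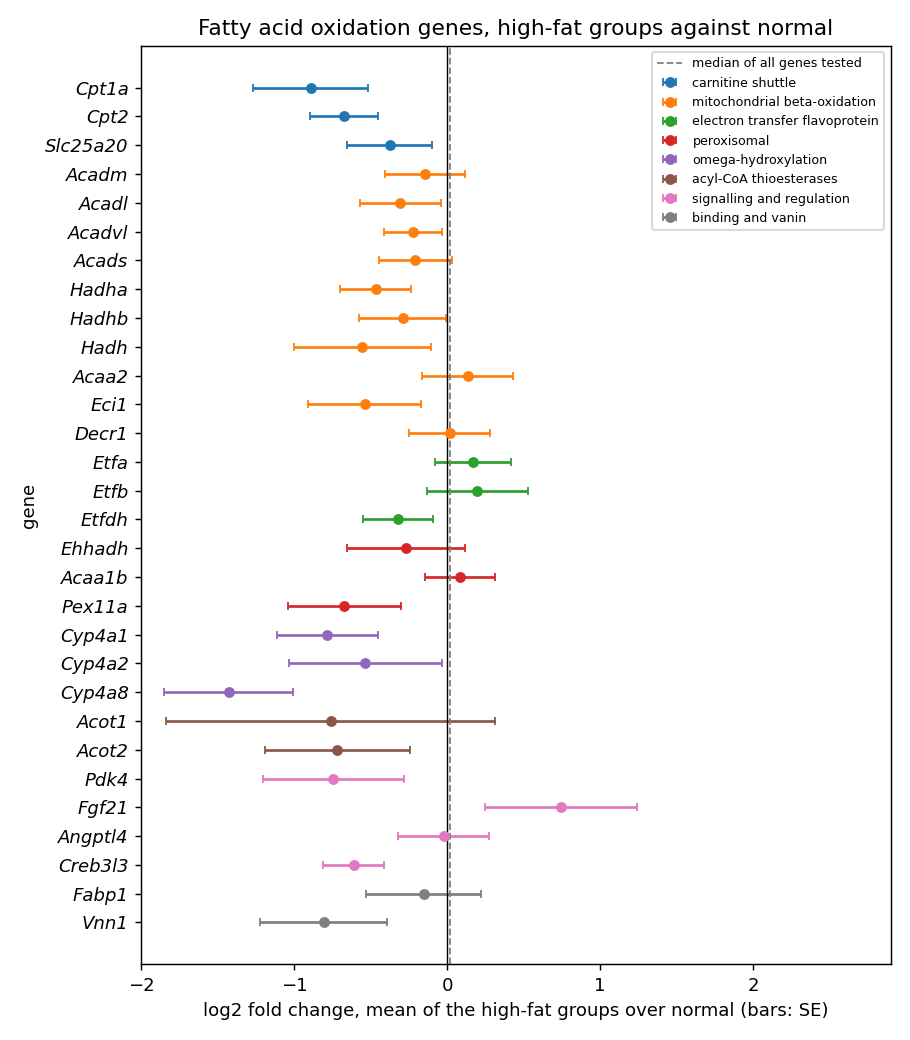
log2 fold change of each gene in the mean of the high-fat groups (arm G, arm D and model) over normal, with its standard error (SE) as a bar, coloured by role; the dashed line is the median of all tested genes. Of the 30 points 24 lie below 0, led by Cyp4a8 at -1.43, and Fgf21 lies farthest above it at 0.74.

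The 10 enzymes of mitochondrial beta-oxidation carry out its repeated steps in the matrix. In the high-fat livers against normal 8 of 10 had a negative log2 fold change, the median was -0.26, and none had an unadjusted p under 0.05. Hadha, the alpha subunit of the trifunctional protein, had 396, 214 and 438 CPM in arm G, 320.3, 334 and 343 CPM in arm D, 291, 276 and 382 CPM in the model and 424, 470.2 and 484 CPM in normal livers. All 3 model libraries were below all 3 normal libraries, while G.4 lay between N.1 and N.2. Its log2 fold change was -0.47 ± 0.23 (adjusted p = 0.791, edgeR's quasi-likelihood test). Acadm, the medium-chain acyl-CoA dehydrogenase, had 593, 270.0 and 600.2 CPM in arm G, 607, 516 and 474 CPM in arm D, 533, 433 and 629 CPM in the model and 528, 604 and 582 CPM in normal livers. Apart from G.3 the groups overlapped. The other acyl-CoA dehydrogenases Acadl, Acadvl and Acads were at -0.31, -0.22 and -0.21 in the same comparison, and Hadhb, the beta subunit of the trifunctional protein, was at -0.29. Hadh, which handles shorter chains, spread between 53.4 CPM in G.3 and 282 CPM in M2.1, and the isomerase Eci1 between 221 CPM in M2.1 and 805 CPM in N.3, so that their values of -0.55 and -0.54 had standard errors of 0.45 and 0.37. The thiolase Acaa2 and the reductase Decr1 were at 0.14 and 0.02.

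The electron transfer flavoprotein hands electrons from the acyl-CoA dehydrogenases to the ubiquinone pool. Its subunits Etfa and Etfb were at 0.17 and 0.20 in the high-fat livers against normal, and Etfdh, the membrane-bound dehydrogenase that receives the electrons, at -0.32. Etfb ranged from 179 CPM in M2.1 to 494 CPM in M.5 within the model group, and from 181 to 399 CPM within the normal group. In the carnitine shuttle, beta-oxidation and electron transfer together, 12 of 16 genes were negative with a median of -0.30.

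Omega-hydroxylases oxidise the methyl end of fatty acids. Cyp4a8 had 12.3, 1.59 and 4.43 CPM in arm G, 5.11, 4.47 and 6.54 CPM in arm D, 5.27, 4.41 and 7.48 CPM in the model and 11.01, 22.7 and 12.8 CPM in normal livers. All model and arm D libraries lay below the normal libraries, and in arm G only G.1 reached the normal range. The log2 fold change was -1.43 ± 0.42 in the high-fat livers against normal (adjusted p = 0.543, edgeR's quasi-likelihood test) and -1.43 ± 0.56 in the model against normal (adjusted p = 0.866). With the mitochondrial share as a covariate these values were -1.03 and -0.80. Cyp4a1 had 207, 309 and 567 CPM in arm G, 258, 173 and 307 CPM in arm D, 329, 426 and 168 CPM in the model and 400.1, 611 and 544 CPM in normal livers. Arm G and the model overlapped normal through G.4 and M.6, and all arm D libraries were below normal, with a log2 fold change of -0.78 ± 0.33 over the high-fat livers (adjusted p = 0.749, edgeR's quasi-likelihood test). Cyp4a2 was at -0.54 with an SE of 0.50 and varied more within groups than between them, from 684 to 3513 CPM in arm D alone. The Cyp4a genes are close copies of each other, and the sources used here do not say how reads shared between them were counted, so a split between them is uncertain.

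Creb3l3 encodes a liver transcription factor, held in the endoplasmic reticulum until it is cleaved, that is known to act with PPAR-alpha in fasting. It had 503, 346 and 515 CPM in arm G, 411, 402 and 396 CPM in arm D, 331, 339.6 and 356 CPM in the model and 539, 715 and 566 CPM in normal livers. The 3 model libraries were below every normal library, and all arm D libraries lay above the model and below normal. Of all tested genes 10.5% did not overlap between the model and normal, and 12.6% between arm D and the model. Arm G was split, with G.3 among the model libraries and G.1 and G.4 above all model libraries but below normal. Creb3l3 averaged 454 ± 94.3 CPM in arm G, 403 ± 7.49 CPM in arm D, 342 ± 12.5 CPM in the model and 607 ± 94.9 CPM in normal livers (SD, n = 3 each). The log2 fold change was -0.83 ± 0.25 in the model against normal (adjusted p = 0.843, edgeR's quasi-likelihood test), the smallest p of the 30 in that comparison. Over all high-fat livers it was -0.61 ± 0.20 (adjusted p = 0.617, edgeR's quasi-likelihood test). Against the model, arm G was at 0.41 ± 0.25 and arm D at 0.24 ± 0.25 on the log2 scale, and neither had an unadjusted p under 0.05.

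In the model against normal, Creb3l3 and Cyp4a8 were the 2 of 30 at an unadjusted p under 0.05, both lower, where the background was 4.91% of all genes, and 0 of 30 were called, where the background was 0%. The 30 genes had 20 negative values and a median of -0.14, against 47.4% and 0.03 for all genes. Without M.6 the median was -0.31 and 25 of 30 were negative. The median was -0.26 without N.1, -0.09 without M.5 and -0.03 without N.3. The 6 stellate cell markers summed to 54.7 to 76.6 CPM in the model and 81.8 to 117 CPM in normal livers, with no overlap, and their part was not tested. Of all tested genes 10.5%, and of the 30 genes 4, did not overlap between these groups. The count of the 30 at an unadjusted p under 0.05 was 1 without N.2, 4 without G.3 and 6 without M2.1. Of all genes, 285 passed without N.2 and 1233 of 12592 without G.3, against 607 of 12355 in the main fit. The share over all genes without M2.1 is not given here. All 3 carnitine shuttle genes, 8 of 10 beta-oxidation genes and all 3 omega-hydroxylases were negative. Among the 10 positive genes were both thioesterases and Fgf21, each with its highest value of all libraries in M.6. For Acot2, M.5 and M2.1, at 46.9 and 30.9 CPM, lay below the lowest normal library at 48.4 CPM. The other positive genes were Etfa, Etfb, Acaa1b, Angptl4, Fabp1 and 2 of beta-oxidation. In the authors' deposited table for these groups, no gene of the 30 passed an adjusted p of 0.05, and 53 genes of all did.

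**Figure D3:**
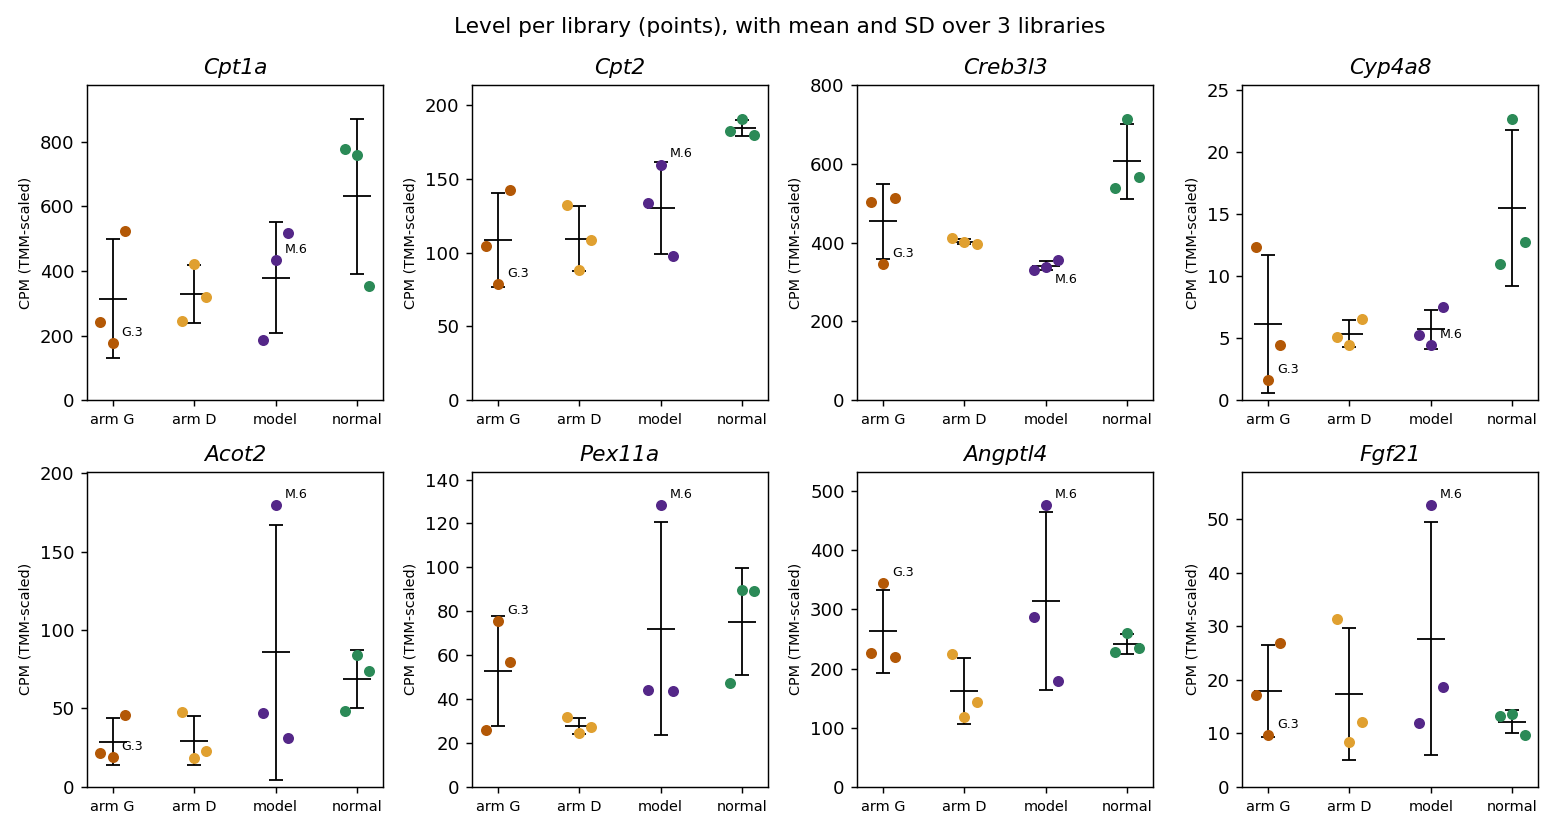
CPM (TMM-scaled library sizes) of 8 genes in each library, with the mean (horizontal bar) and SD (whiskers) of each group of 3, from arm G at the left to normal at the right; M.6 and G.3 are named. Cpt2, Creb3l3 and Cyp4a8 are highest in normal livers, and for Acot2, Pex11a, Angptl4 and Fgf21 library M.6 lies far above the other model libraries.

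The regulators other than Creb3l3 had wide spreads. Pdk4, the kinase that switches off pyruvate dehydrogenase and so spares glucose, had 248, 40.4 and 118 CPM in arm G, 91.96, 69.4 and 129.8 CPM in arm D, 32.3, 72.7 and 102 CPM in the model and 218, 184 and 85.2 CPM in normal livers. Its range within arm G was wider than any difference between group means, and the log2 fold change of the model against normal was -1.23 ± 0.60 (adjusted p = 0.866, edgeR's quasi-likelihood test). Fgf21, the hormone that the fasted liver secretes, had 17.2, 9.64 and 26.8 CPM in arm G, 31.4, 8.43 and 12.1 CPM in arm D, 11.9, 52.5 and 18.6 CPM in the model and 13.3, 13.5 and 9.77 CPM in normal livers. The highest libraries were M.6 in the model, D.1 in arm D and G.4 in arm G, and each of these groups also had a library within or below the normal range of 9.77 to 13.5 CPM. The model against normal was at 1.18 ± 0.59 (adjusted p = 0.866, edgeR's quasi-likelihood test). Fabp1, the fatty acid binding protein of the hepatocyte cytosol, had 1696, 1023 and 2258 CPM in arm G, 1984, 1376 and 1281 CPM in arm D, 2838, 2647 and 1111 CPM in the model and 1092, 2613 and 2231 CPM in normal livers. The ranges of the model and of normal livers overlapped along most of their length. Vnn1, a pantetheinase, had 37.2, 7.71 and 43.6 CPM in arm G, 53.9, 51.3 and 34.8 CPM in arm D, 43.99, 87.4 and 36.1 CPM in the model and 46.7, 75.3 and 101 CPM in normal livers. G.3 was the lowest library by far, and the high-fat livers against normal were at -0.81 ± 0.42.

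Against the model, an unadjusted p under 0.05 was reached by 3 of the 30 genes in arm D, 1 in arm G and 3 in the arms' mean. The background was 6.28%, 2.32% and 4.61% of all genes. The fold changes of the genes at that threshold shrank without library M.6. Both arms are set against the same model libraries, so their values are not independent. Acot2, the thioesterase that hydrolyses long-chain acyl-CoA in mitochondria, had 21.4, 19.2 and 45.9 CPM in arm G, 47.7, 18.2 and 22.6 CPM in arm D, 46.9, 179 and 30.9 CPM in the model and 48.4, 84.1 and 73.8 CPM in normal livers. M.6 was at 179 CPM, more than any other library, while M.5 and M2.1 were within the range of arm D. The log2 fold change against the model was -1.57 ± 0.62 in arm G (adjusted p = 0.9997, edgeR's quasi-likelihood test) and -1.54 ± 0.62 in arm D (adjusted p = 0.786). Without M.6 these values were -0.43 and -0.40, and without M.6 and G.3 they were -0.20 and -0.38. Its cytosolic relative Acot1 was counted 0, 0 and 11 times in arm G, 5, 0 and 4 times in arm D, 3, 55 and 7 times in the model and 5, 25 and 7 times in normal livers. A count of 0 allows up to 3 counts in that library. Acot1 passed the filter on 1 library each of arm G, the model and normal. For Acot1, the mean of arms G and D had a log2 fold change of -2.95 ± 1.15 against the model (adjusted p = 0.995, edgeR's quasi-likelihood test) and of -0.46 without M.6. The Acot genes are close copies, so counts may be split between them.

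Pex11a, a membrane protein of dividing peroxisomes, had 26.1, 75.7 and 56.9 CPM in arm G, 31.9, 24.3 and 27.1 CPM in arm D, 44.3, 128 and 43.6 CPM in the model and 47.1, 89.5 and 89.3 CPM in normal livers. All arm D libraries were below all model libraries, and M.6 was again the highest of the 12. Of all tested genes 12.6% did not overlap between arm D and the model. In arm D against the model the log2 fold change was -1.38 ± 0.48 (adjusted p = 0.783, edgeR's quasi-likelihood test), and without M.6 it was -0.66. Angptl4, the secreted inhibitor of lipoprotein lipase, had 226, 344 and 219 CPM in arm G, 225, 118 and 144 CPM in arm D, 287, 476 and 179.8 CPM in the model and 228, 261 and 236 CPM in normal livers. The model libraries M.5 and M.6 were above every arm D library, while M2.1 lay between D.1 and D.7. In arm D against the model it was at -0.95 ± 0.37 (adjusted p = 0.785, edgeR's quasi-likelihood test), and at -0.52 without M.6. Among the other peroxisomal genes, the bifunctional enzyme Ehhadh had 459.7, 135 and 687 CPM in arm G, 363, 329 and 446 CPM in arm D, 322, 664 and 565 CPM in the model and 394, 559.5 and 627 CPM in normal livers. G.3 was far below the other libraries, which overlapped between groups. The peroxisomal thiolase Acaa1b had 406, 554 and 448 CPM in arm G, 384, 441 and 336 CPM in arm D, 371, 584 and 425 CPM in the model and 324, 427 and 483 CPM in normal livers. M.6 and G.3 were its highest libraries, and arm D against the model was at -0.25 ± 0.28.

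**Figure D4:**
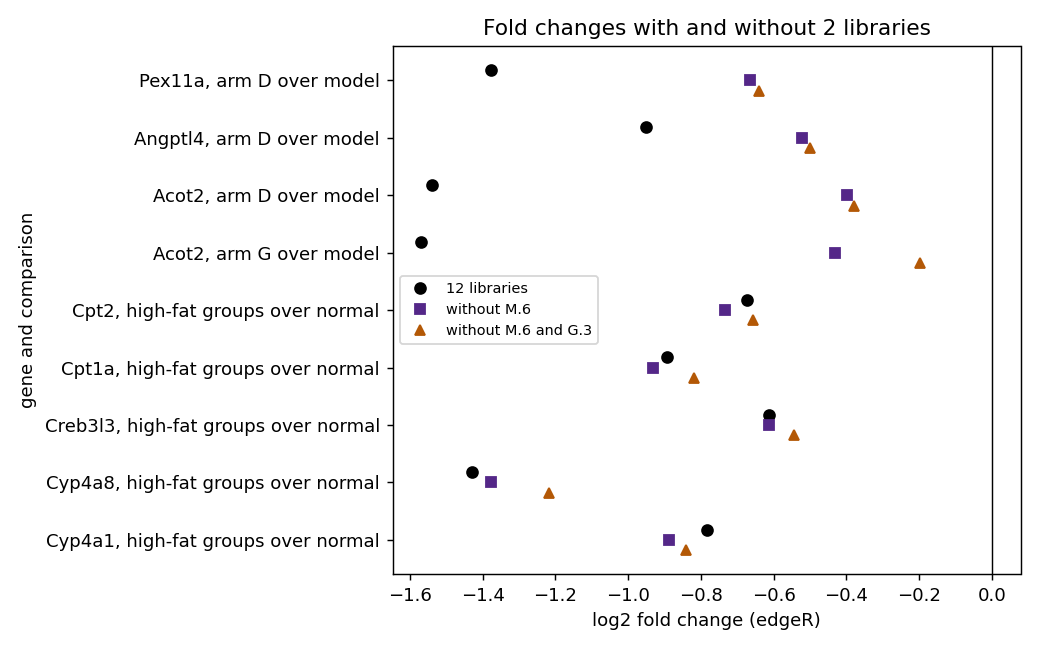
log2 fold changes from edgeR of 9 gene and comparison pairs with all 12 libraries (circles), without M.6 (squares) and without M.6 and G.3 (triangles). The values of arms against the model move toward 0 without M.6, such as Acot2 in arm D to -0.40, and those of the high-fat groups against normal lie between -0.54 and -1.38 in both settings with libraries left out.

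In arm D against the model 3 of 30 genes, Pex11a, Angptl4 and Acot2, had an unadjusted p under 0.05, all lower, where the background was 6.28% of all genes, and 0 of 30 were called, where the background was 0%. There were 21 negative values with a median of -0.25, against 53.3% and -0.04 for all genes. The median was -0.14 without D.4, -0.09 without M.6 and -0.06 without M.6 and G.3. The summed endothelial markers, and the sum of the 6 pericentral hepatocyte markers at 3875 to 6290 CPM in arm D and 2839.8 to 3872 CPM in the model, did not overlap between these groups. Cyp2e1 made up most of the pericentral sum, with 3054 CPM in D.7 and 2984 CPM in M2.1. Cyp2e1 and Oat did not overlap between these groups, and Glul, Cyp1a2, Rhbg and Slc1a2 did. Of all tested genes 12.6%, and of the 30 genes 4 (13.3%), did not overlap in this comparison. Of these 4, Creb3l3 was higher in arm D, and Acadl, Acadvl and Pex11a were lower. The part of these markers was not tested. In arm G against the model Acot2 was the 1 of 30 at an unadjusted p under 0.05, lower, where the background was 2.32%, and 0 were called, where the background was 0%. The median was -0.20 with all libraries and 0.06 without G.3, against 0.00 and -0.06 for all genes. It was -0.07 without M.6 and 0.13 without M.6 and G.3. In the arms' mean against the model, Acot2, Acot1 and Pex11a were 3 of 30 at that threshold, all lower, where the background was 4.61%, and 0 were called, where the background was 0%. Without M.6 no gene of the 30 had an unadjusted p under 0.05 in any of these 3 comparisons. Of all 12595 genes in that fit, 406 passed in arm D, 369 in arm G and 411 in the arms' mean. Without M.6 and G.3 there were 0 in arm D, 2 in arm G and 1 in the arms' mean at that threshold. In that fit 855, 584 and 871 of all 12499 genes passed. In limma-voom with sample quality weights there were 9 in arm D, where the background was 20.1% of all genes, 5 in arm G, where it was 12.8%, and 9 in the arms' mean, where it was 18.3%. The median of the arms' mean was -0.22 with all libraries, -0.12 without M.6, -0.10 without G.3 and 0.06 without both. Without M2.1 the counts were 6 in arm D, 3 in arm G and 6 in the arms' mean. Without D.4 or D.7 the count in arm D was 1. Of all genes, 318 passed in arm D without D.4, against 776 in the main fit. Without G.3 the counts were 2 in arm G and 6 in the arms' mean, against 921 and 1605 of all 12592 genes. Without D.1 the count was 5 in the arms' mean, and in arm G it was 2 without G.4 or M.5 and 0 without G.1. The share over all genes is not given here for the fits without M2.1, D.1, D.7, G.1, G.4 or M.5. Counts without that share are not read as results about the 30 genes. M.6 had the highest value for 7 of the 30 genes (Acadvl, Acaa1b, Pex11a, Acot1, Acot2, Fgf21 and Angptl4) and for 10.7% of all tested genes, and the lowest for none of the 30. G.3 had the lowest value for 15 of the 30 and for 22.3% of all tested genes.

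Arm G against arm D showed 0 of 30 at an unadjusted p under 0.05, where the background was 3.42%, and 0 called, where the background was 0%, in edgeR. The smallest p-values were those of Pex11a, at a log2 fold change of 0.93 ± 0.47, and Angptl4, at 0.69 ± 0.37. Of the 30 genes 20 were positive with a median of 0.06, and without G.3 it was 28 with a median of 0.26, against -0.01 and -0.02 for all genes. The median was -0.20 without G.4 and 0.14 without D.1. In Acadvl, the very long-chain acyl-CoA dehydrogenase, the arms did not overlap, at 285 to 288 CPM in arm G and 232 to 257 CPM in arm D. It was the 1 of 30 genes (3.33%) without overlap, where the background was 7.43% of all tested genes.

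A test for any difference among the 4 groups gave Creb3l3, Cyp4a8, Acot2 and Pex11a as 4 of 30 at an unadjusted p under 0.05, where the background was 4.86%, and 0 called, where the background was 0%, in edgeR. The first count was 0 without D.4, N.2 or N.3, 1 without D.7, 2 without D.1 or M.5, and 6 without G.4 or M2.1. Of all genes, 337 passed that threshold without D.4, against 600 of 12355 in the main fit. The share over all genes is not given here for the other left-out libraries. Their counts are therefore not read as results about the 30 genes. When libraries were weighted by their quality in limma-voom, 4 of 30 were called in the high-fat livers against normal, where the background was 7.08% of all genes. These were Cyp4a8 at -1.54 (adjusted p = 0.0234), Creb3l3 at -0.66 (adjusted p = 0.0257), Cpt2 at -0.66 (adjusted p = 0.0342) and Cpt1a at -1.14 (adjusted p = 0.0432), all lower in the high-fat livers. The test for any difference among the groups called 4 of 30 in limma-voom, where the background was 4.01%, namely Angptl4, Acot2, Cpt2 and Creb3l3. DESeq2 called none of the 30 in any comparison.

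Ketogenesis turns the acetyl-CoA of beta-oxidation into ketone bodies. Its 5 listed genes, none past an unadjusted p of 0.05, were all negative in the high-fat livers against normal, with a median of -0.23. Of the 13 tested genes of the further peroxisomal list, 12 were negative in that comparison, with a median of -0.41, and 2 of these had an unadjusted p under 0.05. All tested genes had 47.9% negative, a median of 0.02 and 6.52% at that threshold.

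Among 55 further genes of the pathway, in 7 lists, 46 were negative in the high-fat livers against normal, 9 of them at an unadjusted p under 0.05, and 2 genes were positive at that threshold, against 47.9% of all genes negative and 6.52% past it in either direction. None passed an adjusted p of 0.05 in edgeR. At the unadjusted threshold the model against normal had 6 of the 55 lower and 1 higher, against 4.91% of all genes in either direction. Arm D against the model had 6 lower and 1 higher, against 6.28% of all genes, arm G against the model 1 lower and 1 higher, against 2.32%, and arm G against arm D 0, against 3.42%. The smallest p in the high-fat livers was that of Ppargc1a, the coactivator of PPAR-alpha in fasting, with 0.575, 0.907 and 0.901 CPM in arm G, 0.780, 0.918 and 1.03 CPM in arm D, 0.648, 0.180 and 0.651 CPM in the model and 4.61, 3.61 and 0.820 CPM in normal livers. It was near the counting limit, with 2 to 17 counts in the high-fat libraries and 11 to 72 in the normal ones. N.1 and N.2 were well above the rest and N.3 lay among the high-fat libraries. Its log2 fold change was -2.07 ± 0.47 in the high-fat livers (adjusted p = 0.256, edgeR's quasi-likelihood test) and -2.57 ± 0.66 in the model against normal. Amacr, a racemase of branched-chain oxidation, had 351, 412 and 365 CPM in arm G, 364, 460.4 and 289 CPM in arm D, 449, 366 and 339 CPM in the model and 674, 549 and 798 CPM in normal livers. All high-fat libraries were below all normal libraries, at -0.84 ± 0.21 (adjusted p = 0.344, edgeR's quasi-likelihood test). How many of all tested genes separate in this way is not given here. G0s2, an inhibitor of adipose triglyceride lipase, stood the other way in the model against normal, at 1.35 ± 0.37 (adjusted p = 0.745, edgeR's quasi-likelihood test), with 381, 135 and 289 CPM in the model and 117, 97.3 and 102 CPM in normal livers.

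The receptor itself, Ppara, had 11.3, 6.92 and 4.78 CPM in arm G, 4.82, 5.74 and 5.81 CPM in arm D, 3.97, 11.1 and 31.7 CPM in the model and 16.1, 10.04 and 3.13 CPM in normal livers. M2.1 was the highest library and M.5 was below all arm libraries, so that the value of -1.52 ± 0.68 in arm D against the model (adjusted p = 0.788, edgeR's quasi-likelihood test) rested on a wide spread. Against the model, the smallest p-values among the further genes in arm D were those of the thioesterases Acot3 and Acot4, at -1.46 ± 0.51 and -1.38 ± 0.49. Both had their highest library in M.6, at 46.3 and 171 CPM, against 11.4 and 53.6 CPM in M.5 and 11.7 and 43.5 CPM in M2.1. In arm G the smallest were those of Sirt1, a deacetylase, at -0.77 ± 0.28, and Slc27a5, a liver fatty acid transporter and bile acid CoA ligase, at 1.21 ± 0.51. In the arms' mean against the model the same pair had the smallest p, at -0.72 ± 0.24 and 1.29 ± 0.47. Slc27a5 had 1110.5, 227 and 688 CPM in arm G, 799, 1000.2 and 490.4 CPM in arm D, 259.9, 307 and 311 CPM in the model and 1074, 939 and 441 CPM in normal livers. The model libraries lay close together, and only G.3 among the arms was below them. In arm G against arm D the smallest p-values were those of Crot, a peroxisomal carnitine acyltransferase, at 0.58 ± 0.36, and Ucp2, a carrier of the inner mitochondrial membrane, at -0.52 ± 0.33, both with p over 0.05.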

How the data were processed

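Liver RNA was taken up in Trizol and made into libraries by an NEBNext Ultra kit, as the labels' protocols say. The authors deposited 3 tables, which set the normal group and each didymin arm beside the model, holding raw read counts for each gene, as the file headers and the whole-number values show. Columns of log2 fold change, p-value and adjusted p-value that the authors deposited served only for the sentences that credit them; in their table of normal and model, normal is on top. DESeq2 and mm9, which is a mouse build, are named without a version in the submitters' processing notes. Aligner, counting tool, annotation and use of strand: not given in the sources used here, so no coordinates of the files are printed and overlapping or copied genes are uncertain.

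The columns (N.1, M2.1, G.3) carry letters and numbers that give the group but no single sample, and the model columns are M.5, M.6 and, differently built, M2.1. The model libraries stand in all 3 tables with 0 counts that differ. Tables were joined on the gene name, with 0 for a gene not listed. Within groups, every pair of libraries differed beyond sampling noise (chi-square per degree of freedom 22.4 to 893). The 36 per-sample columns of other values were not used.

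Counts were tested in R 4.3.3 with edgeR 4.0.16: filterByExpr left 12355 genes, libraries were scaled by TMM, and 1 quasi-likelihood fit of all 12 libraries had a mean per group, 8 residual degrees of freedom, 4.32 prior degrees of freedom and a common biological coefficient of variation of 0.409. The Benjamini-Hochberg adjustment ran over all these genes at a threshold of 0.05, and the script was tested on simulated data. CPM are counts relative to the TMM-scaled library size, and are compared within a gene and not between genes. Alternatives were limma 3.58.1 (voom with sample quality weights), DESeq2 1.42.0, other filters and scalings, a covariate and left-out libraries. Values in every library are given for genes with an unadjusted p under 0.05 and for a fixed set of others. The genes, lists and rules were chosen with earlier results of these data known. Some genes that this rule names are not reported here.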

Additional observations from a re-analysis of the deposited data

How the results depend on the processing

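No paired analysis was possible because outside the normal group the columns' numbers, such as M.5, D.7 and G.4, do not follow the labels' replicate numbers, so no columns could be paired across groups. Every alternative other than limma-voom with sample quality weights left 0 of the 30 genes called in every comparison, as in the main edgeR fit; limma-voom called 4 in the high-fat livers against normal and 4 in the test for any difference among the groups. The 287 recomputed log2 fold changes were only of genes of the 30 with an unadjusted p under 0.05 in the main fit of that comparison. None of these had passed the adjusted threshold there. Of the 287, 283 kept their direction and their side of the threshold, 4 passed it in limma-voom, and 0 reversed. Genes picked by p in these libraries and refitted on mostly the same libraries seldom reverse, so these counts do not measure stability. The median of the 30 genes moved with the setting. Over all settings it ranged from -0.48 to -0.25 in the high-fat livers against normal, from -0.31 to -0.03 in the model against normal and from -0.31 to -0.06 in arm D against the model. It changed sign in arm G against the model (-0.29 to 0.13), in the arms' mean against the model (-0.30 to 0.06) and in arm G against arm D (-0.20 to 0.30). Acot1 gave no value under a filter of 1 CPM in 3 libraries or in a fit of only the groups compared. For the high-fat livers against normal and the test of any difference, a fit of only the groups compared is the main fit. The wide spread between libraries, and in Acot1, Cyp4a8 and Ppargc1a low counts, limit what these libraries can show; the cause of the changes with settings was not tested.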
